A study of Mus musculus with 32 samples.

Results

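Newborn migrating excitatory neurons of the mouse dorsal telencephalon were selected on raw transcript counts in droplet single-cell RNA-seq, and 5893 cell barcodes qualified out of 102913 deep enough to be considered in 24 libraries. A barcode was deep enough with at least 1000 unique molecular identifiers (UMIs, each taken as 1 captured transcript) and 500 detected genes. It was chosen by at least 2 UMIs of Neurod1, at most 1 of Eomes, none of Sox2 or Pax6, none of Top2a or Mki67 and none of Gad2. The libraries came from embryos on the C57BL/6J strain at embryonic days E14.5, E16.0 and E17.5, wild type (WT) or heterozygous for Chd8 (Chd8+/-, called het here), and each library was 1 embryo. Each of the 6 groups held 4 libraries, from males M1 and M2 and females F1 and F2. Chd8 encodes a chromatin remodeller and is a high-confidence autism risk gene. The other 8 of the 32 libraries, from E12.5, were not used here. In WT the stages held 1281, 1085 and 727 newborn neurons, and in het 1041, 1174 and 585.

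Excitatory neurons of the cortex arise from radial glia in the ventricular zone, in large part through intermediate progenitors that express Eomes. A daughter that leaves the cell cycle loses Eomes, switches on Neurod1, passes a multipolar phase in the subventricular and intermediate zones and then climbs along radial glial fibres into the cortical plate. Neurons born early settle in deep layers and those born later migrate past them to upper layers, so newborn cells collected on later days belong to later-born cohorts. Unc5d, a netrin receptor known from multipolar cells of the subventricular zone, Rnd2, a small GTPase that promotes radial migration downstream of Neurog2, and Nrp1, a semaphorin receptor, mark this phase besides Neurod1.

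On the GRCm38 build with GENCODE M21, Neurod1 lies at chr2:79452521-79456751 on the minus strand, Unc5d at chr8:28646717-29219636 on the minus strand, Rnd2 at chr11:101464999-101471853 on the plus strand and Nrp1 at chr8:128358604-128503363 on the plus strand. Each is protein coding. Neurod1 overlaps Cerkl on its own strand and Gm26755 on the other, Unc5d overlaps Svet1, Gm9911 and Gm45652 and Nrp1 overlaps Mir1903 on their own strands, and Rnd2 overlaps Vat1 on the other strand. The strand used in counting is not given in the sources used here, so reads of Rnd2 and Vat1, or of Neurod1 and Gm26755, cannot be told apart with certainty.

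Depth per library ranged from 14710694 to 48506799 UMIs, and the UMIs summed over newborn neurons from 508244 to 3769165. Levels below are in CPM, a gene's UMIs scaled to 1000000 UMIs summed over the newborn neurons of a library, unless stated. The median newborn neuron had 6837 ± 1195 UMIs in E14.5 WT, 5432 ± 264 in E16.0 WT and 4937 ± 526 in E17.5 WT (mean ± SD of libraries, n = 4), and no difference between het and WT in UMIs, genes or mitochondrial share had an exact permutation p below 0.229. Pairs of libraries shared between 7 and 66 barcodes, at most 1.30% of the smaller library. Libraries at E17.5 stood apart by the start of a code in their labels: M1 and F1 of both genotypes start with p and M2 and F2 with c. At E14.5 and at E16.0 the males and the females carry different codes, so that sex and code cannot be told apart there. No full code is shared between stages, although codes that start with c occur at each of the 3, so that stage and full code cannot be told apart. What the codes stand for is not given in the sources used here. Each code holds as many WT as het libraries. Some named genes and gene lists in WT rest on the E17.5 libraries. For these, the value without the p-coded or the c-coded libraries is given where it ended a call or changed a list's count. For the het steps only the shares of all genes are given without either code. For Sox5 at the second step only the loss of its call is given.

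The label was checked against markers that the selection did not use. Neurod2 or Neurod6, transcription factors of excitatory neurons, were detected in 5889 of the 5893 cells. Neurod6 does not tell newborn from later neurons: with barcodes thinned to 2000 UMIs and shallower ones left out, it was detected in 96.6, 97.3 and 94.1% of WT later neurons at the 3 stages. At least 2 of Unc5d, Rnd2 and Nrp1 were detected in 3870 cells (65.7%), and none of them in 586 (9.94%). Gad1, an enzyme of inhibitory neurons, was detected in 13 cells, and 29 cells had at least 2 UMIs of Reln, which Cajal-Retzius cells secrete. Neurog2, the proneural factor of progenitors, was detected in 1780 cells (30.2%). With the same thinning, it was detected in a mean of 13.1, 14.4 and 9.33% of WT newborn neurons at the 3 stages. In endothelial cells, which should lack it, the shares were 3.33% (1 of 30 cells, exact interval 0.0844 to 17.2), 3.51% (2 of 57, 0.428 to 12.1) and 2.78% (2 of 72, 0.338 to 9.68). In interneurons they were 6.99% (4.62 to 10.1), 10.4% (6.68 to 15.1) and 2.38% (1.15 to 4.34). That set averaged 143.8 ± 123.8, 416 ± 246.5 and 74.55 ± 53.96 CPM of Neurog2 at the 3 stages. Newborn neurons averaged 81.6 ± 20.4, 80.3 ± 13.8 and 53.55 ± 18.64 CPM. The interneuron set is thus no clean background at any stage, and least so at E16.0.

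The selection is a range rather than a sharp class. Neurod1 was at 2 UMIs in 2951 cells (50.1%), at 3 in 1360, at 4 in 732, at 5 in 387 and at 6 or more in 463. In WT libraries the mean share at 2 UMIs was 44.2, 52.05 and 60.0% at the 3 stages, so more cells lay at this edge on later days. A further 7587 barcodes had 1 UMI of Neurod1 and met every other condition. Pooled over the libraries of a stage, Unc5d stood at 32.4 CPM in those just outside, 50.7 at 2 UMIs and 79.1 at 3 or more at E14.5, at 86.8, 136 and 172 CPM at E16.0 and at 152.7, 175 and 235 CPM at E17.5. Mef2c, a transcription factor of maturing neurons, went the other way, at 165, 108 and 64.7 CPM at E14.5, 315, 191.5 and 116.5 CPM at E16.0 and 581, 412 and 288 CPM at E17.5. On the Eomes side, 5116 cells (86.8%) had none, 777 had 1 UMI and 362 barcodes just outside had 2. Neurog2 stood at 193.8 CPM with 2 UMIs of Eomes, 126.4 with 1 and 68.7 with none. These values describe how the selection works and are no test.

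Set beside other barcodes of the same libraries chosen by similar rules, newborn neurons had more Unc5d and Rnd2 than later neurons, less Neurog2 than intermediate progenitors and less Syt1 and Grin2b than later neurons. In E16.0 WT, Unc5d averaged 82.8 ± 13.4 CPM in intermediate progenitors (Eomes at 2 or more UMIs), 146.9 ± 8.98 in newborn neurons and 31.9 ± 12.5 in later neurons, which lack Neurod1. Unc5d was higher in newborn than in later neurons in all 24 libraries, with a median ratio of 4.31, and so was Rnd2, with a median ratio of 2.78. Nrp1 was higher than in intermediate progenitors in all 24 libraries, with a median ratio of 4.70, while its ratio to later neurons was 4.47 at E14.5, 1.98 at E16.0 and 1.04 at E17.5. Neurog2 was at 0.0426 times its level in intermediate progenitors. Syt1, the synaptic vesicle calcium sensor, was at a median of 0.330 times its level in later neurons, and Grin2b, an NMDA receptor subunit, at 0.225 times. At E17.5 these ratios were 0.471 and 0.534. The ratio of Unc5d to later neurons was 2.14 at E17.5 and that of Rnd2 3.15. Other neuronal genes differed less from later neurons, with median ratios of 0.852 for Gria2 and 1.05 for Dcx.

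**Figure D1:**
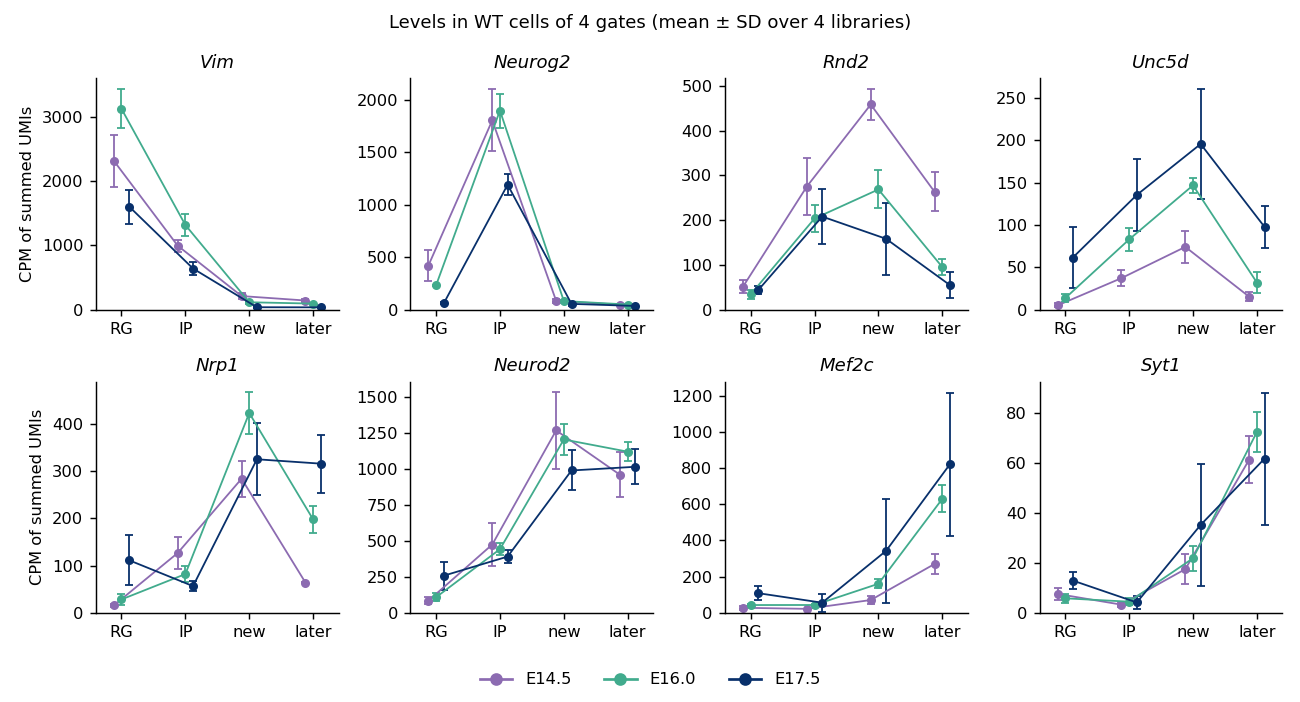
Levels of marker genes in CPM (vertical axes) in WT libraries by stage, in radial glia (RG), intermediate progenitors (IP), newborn neurons (new) and later neurons (later), each chosen by thresholds on marker UMIs. Unc5d has its highest mean in newborn neurons at each stage, Rnd2 does so except at E17.5, where intermediate progenitors are higher, Neurog2 is low in newborn and later neurons, and Mef2c and Syt1 are higher in later than in newborn neurons.

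The mean share of newborn neurons among barcodes was lower on later days, and no stage pair passed the test. The share in WT libraries, in the order M1, M2, F1 and F2 used for all values below, was 10.4, 8.48, 5.16 and 7.50% on E14.5, then 6.51, 4.58, 6.59 and 4.53% on E16.0 and 3.95, 6.74, 4.50 and 4.28% on E17.5. The WT groups overlapped at every step. The WT mean went from 7.88 ± 2.18 to 5.55 ± 1.15 and 4.87 ± 1.27% (SD, n = 4). Between E14.5 and E17.5 the difference of -3.02 percentage points had a two-sided exact permutation p of 0.0571 and an adjusted p of 0.171 over the 3 stage pairs, where 4 libraries against 4 can reach 0.0286. After barcodes were thinned to 3000 UMIs, with shallower ones left out, the WT means were 4.87, 4.16 and 3.44%. This left out 723 of 16019 WT barcodes at E14.5, 2737 of 19057 at E16.0 and 2851 of 15026 at E17.5.

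The mean share was lower in het than in WT embryos at each stage, and no difference passed the test. The het shares were 8.90, 6.77, 4.03 and 5.60% on E14.5, then 3.25, 6.02, 5.58 and 4.67% on E16.0 and 3.23, 5.55, 4.02 and 4.39% at E17.5. The embryos were litter- and sex-matched pairs, but the labels do not list the pairs, and the WT embryo of the same sex and number is taken as the partner here. At E16.0 the deviations of WT M1 and M2 from their group mean correlated more with those of the other het male (r of 0.487 and 0.363 across genes) than with those of their own number (0.249 and 0.0816). The het embryo was lower than its partner in 4 of 4 pairs at E14.5, 2 of 4 at E16.0 and 3 of 4 at E17.5, 9 of 12 in all, and the unpaired groups overlapped at each stage. Het minus WT was -1.56 percentage points at E14.5, -0.674 at E16.0 and -0.571 at E17.5, with exact permutation p of 0.371, 0.486 and 0.543. The mean over the stages was -0.934 points with a permutation p of 0.136 and an adjusted p of 0.543 over the 4 comparisons. With these pairs kept together, a sign-flip permutation over the 12 pairs gave p = 0.0195, or 0.0781 adjusted over the 4 comparisons. With 1 library left out, the difference ranged from -2.47 (without WT F1) to -0.722 (without WT M1) at E14.5, from -1.06 (without het M2) to -0.131 (without het M1) at E16.0, and from -0.99 (without het M2) to 0.0524 (without WT M2) at E17.5, so that the sign at E17.5 rests on WT M2.

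**Figure D2:**
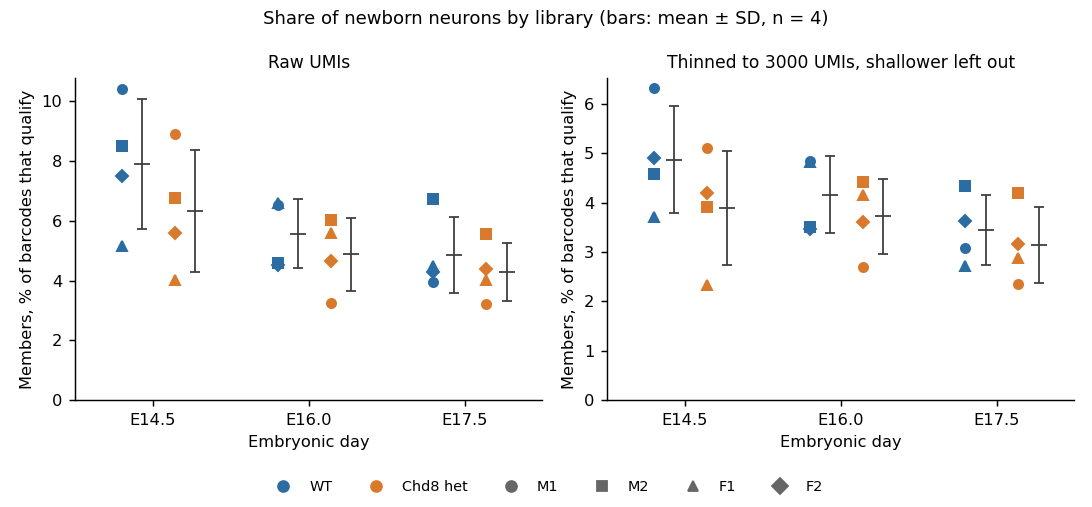
Share of newborn neurons among barcodes that qualify, in percent (vertical axes), by embryonic day and genotype, on raw UMIs (left) and after thinning to 3000 UMIs with shallower barcodes left out (right). Points are libraries, shapes give the embryo and bars the mean ± SD of 4. The WT mean goes from 7.88 to 5.55 and 4.87% on raw UMIs, and WT and het overlap at every stage.

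Newborn neurons of different embryonic days differed in layer genes: from E14.5 to E17.5 in WT, 7 of 9 upper-layer genes rose, and 4 of 10 deep-layer genes fell while 1 rose. Of 9636 genes tested with edgeR's quasi-likelihood test and Benjamini-Hochberg adjustment, 214 were higher (2.22%) and 125 lower (1.3%) in WT at E16.0 than at E14.5 at an adjusted p under 0.05, and 74 were higher (0.768%) and 62 lower (0.643%) at E17.5 than at E16.0. Between E14.5 and E17.5, a contrast added after the data were seen, 1132 genes were higher (11.7%) and 993 lower (10.3%). The median log2 change over all genes tested was -0.01, 0.02 and 0.03 in the 3 comparisons. DESeq2 split the first step as 238 higher and 212 lower. The counts rest on few embryos: with 1 library left out they ranged from 123 to 458 at the first step, from 26 to 162 at the second and from 1482 to 2292 over both. A stricter selection (Neurod1 at least 3 UMIs, Eomes 0) called 102 and 61 genes at the steps and 954 over both. With it, 62 of 185 named-gene values lost their call, and these are not marked gene by gene below. Without the p-coded E17.5 libraries the second step called 91 genes, and without the c-coded ones 659. Over both steps 5.86% of all genes were then higher and 5.64% lower without the p-coded libraries, and 14.4% and 11.6% without the c-coded ones, which are the shares to read each list's counts against. Markers of red blood cells varied widely between libraries. All 4 erythroid markers rose over both steps in WT (median log2 change 4.52), but none was called at either single step. They summed to 73.2 to 383.8 CPM in E14.5 WT (median 199.9), 142.8 to 5150 in E16.0 WT (median 1149) and 247.2 to 13617 in E17.5 WT (median 475.5). In het libraries their median log2 change at the first step was -0.49, with none called. Of 11 immediate early and heat shock genes tested, 4 fell over both steps (Dnajb1, Ier2, Hspa8 and Dusp1) and none rose. Their part in the stage results was not tested.

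Of 9 upper-layer genes described here, 5 rose at the first step (Pou3f1, Pou3f2, Pou3f3, Cux1 and Unc5d), 1 at the second (Pou3f2) and 7 over both, with none lower in any of the 3, and the median log2 change of the list was 0.90, 0.44 and 1.37. Pou3f2 (Brn2), a POU-domain factor of upper-layer neurons at chr4:22482780-22488366, stood at 77.7, 98.8, 147 and 83.4 CPM on E14.5, then at 376, 314, 403 and 314 on E16.0 and at 716, 512, 456 and 614 on E17.5. No WT library of a later day reached down to an earlier one. It rose by 1.72 ± 0.21 on the log2 scale (± standard error throughout) at the first step (adjusted p = 1.68e-05) and by 0.75 ± 0.20 at the second (adjusted p = 0.0495). Cux1, another upper-layer factor, stood at 96.6, 99.6, 85.2 and 104 CPM on E14.5, then at 220.5, 138, 239 and 171 on E16.0 and at 280.1, 281, 214 and 252 on E17.5. The first 2 days did not overlap, and the last 2 did. Cux1 rose by 0.90 ± 0.16 at the first step (adjusted p = 0.00155), and the second step of 0.47 ± 0.16 did not pass (adjusted p = 0.139).

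Of 10 deep-layer genes tested, the same 3 fell at the first and at the second step (Bcl11b, Fezf2 and Sox5) and none rose, with list medians of -0.55 and -0.59. Over both steps 4 fell and Ldb2 rose. Bcl11b (Ctip2), which specifies subcerebral projection neurons and lies at chr12:107910403-108003602, stood at 495, 474, 387 and 341 CPM on E14.5, then at 279, 216, 222 and 236 on E16.0 and at 116, 114, 138 and 160 on E17.5. The 3 days did not overlap, and the 2 E14.5 males lay above the 2 females. Bcl11b fell by 0.93 (log2 change -0.93 ± 0.16, adjusted p = 0.000949) and then by 0.80 (-0.80 ± 0.16, adjusted p = 0.0131). Fezf2, the selector of layer 5 projection neurons at chr14:12342094-12348189, stood at 239, 249, 121 and 142 CPM on E14.5, then at 72.6, 105, 78.4 and 83.3 on E16.0 and at 36.5, 15, 53.1 and 44.5 on E17.5. Its days did not overlap either, and the 2 E14.5 males lay above the 2 females. Fezf2 changed by -1.26 ± 0.23 (adjusted p = 0.00258) and -1.17 ± 0.28 (adjusted p = 0.0310) on the log2 scale, and the second step did not pass without the c-coded E17.5 libraries (-0.84, adjusted p = 0.0618). Sox5, which controls the order of deep-layer fates, went from 250 ± 70.3 to 172 ± 5.79 and 98.2 ± 24.4 CPM. Tbr1, the layer 6 factor, stood at 241 ± 30, 186 ± 19.5 and 174 ± 71.6 CPM and passed at neither step (adjusted p = 0.265 and 0.978).

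At the second step the layer calls depend on the E17.5 codes. Of Pou3f2, Bcl11b, Fezf2 and Sox5, only Bcl11b was called both without the p-coded and without the c-coded libraries. Without the p-coded E17.5 libraries, Sox5, Bcl11b and Fezf2 fell at the second step and no upper-layer gene was called (Pou3f2 0.73, adjusted p = 0.0751). Without the c-coded libraries, Bcl11b fell while Ldb2 and Crym rose, and Pou3f2 and Rorb rose while Lhx2 fell. Over both steps, 6 upper-layer genes rose without the p-coded libraries and 6 without the c-coded ones, and Bcl11b, Fezf2, Sox5 and Foxp2 fell in each case. Rorb and Ldb2 lost their calls over both steps without the p-coded libraries (adjusted p = 0.303 and 0.771), and Cux2 without the c-coded ones (adjusted p = 0.442).

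Within single cells, Pou3f2 was detected in more and Fezf2 in fewer newborn neurons on later days. After thinning to 2000 UMIs, Pou3f2 without Fezf2 was detected in 17.4, 41.2 and 61.7% of WT newborn neurons at E14.5, E16.0 and E17.5 (means of 4 libraries), and Fezf2 without Pou3f2 in 20.7, 7.08 and 2.40%. Both were detected in 2.54, 6.00 and 3.41%, and neither in 59.4, 45.7 and 32.5%. Unthinned, both were detected in 17.1, 20.5 and 9.84%, so the share with both depends on depth. As a background, interneurons thinned to the same depth had a UMI of Pou3f2 in 10 of 372 WT cells at E14.5 (2.69%, exact 95% interval 1.30 to 4.89%), 25 of 222 at E16.0 (11.3%, 7.42 to 16.2%) and 66 of 420 at E17.5 (15.7%, 12.4 to 19.5%). Fezf2 was found in 9 of 372 at E14.5 (2.42%, 1.11 to 4.54%), 9 of 222 at E16.0 (4.05%, 1.87 to 7.56%) and 8 of 420 at E17.5 (1.90%, 0.826 to 3.72%). In newborn neurons Fezf2 was found in 23.2, 13.1 and 5.81% in all, above these intervals, although the interneuron set is no clean background at any stage. WT endothelial cells had Fezf2 in 1 of 30 (3.33%, 0.0844 to 17.2%), 0 of 57 (0 to 6.27%) and 1 of 72 (1.39%, 0.0352 to 7.50%). At E17.5 the share in newborn neurons lay within the endothelial interval. Intervals cover counting error only.

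**Figure D3:**
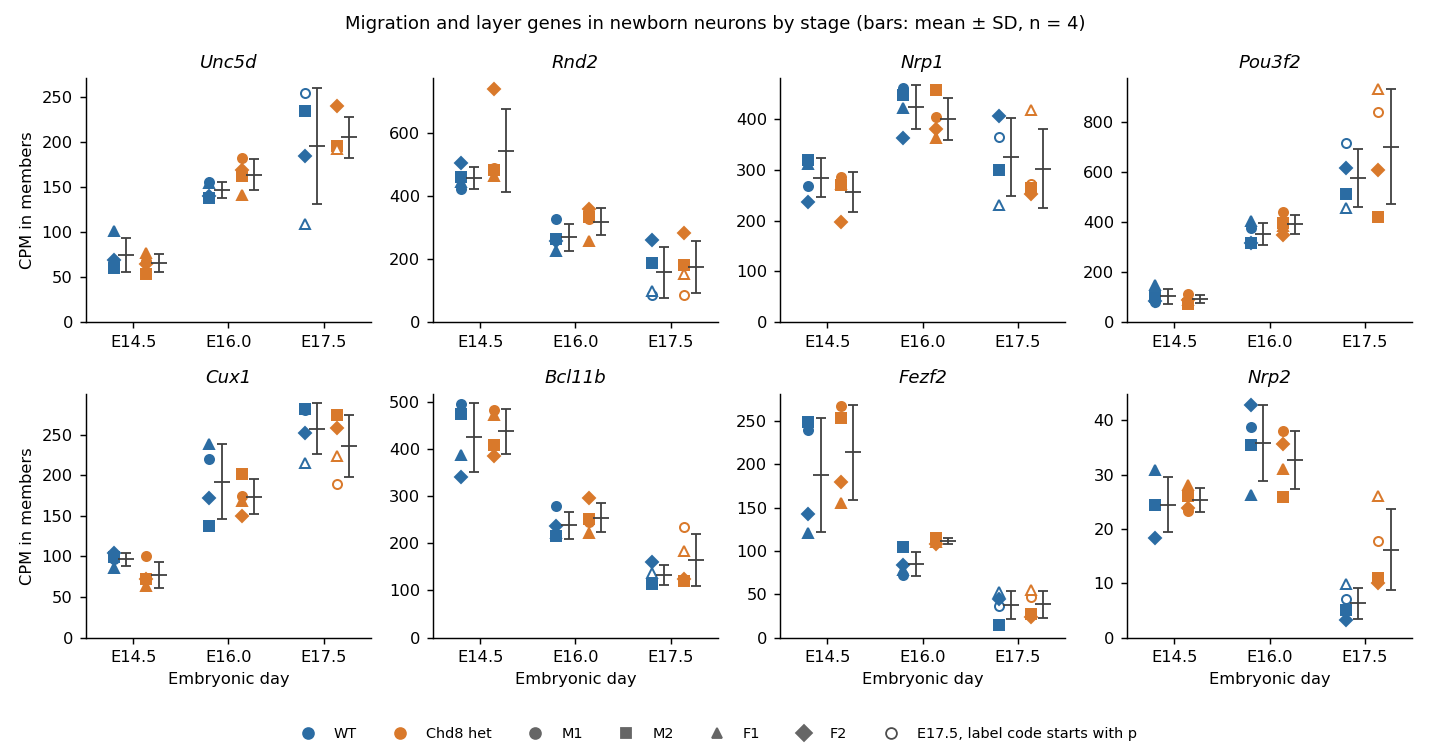
Levels in CPM (vertical axes) of migration and layer genes in newborn neurons by embryonic day and genotype, with 1 point per library and the shape giving the embryo. Bars are the mean ± SD of 4 libraries, and means of Pou3f2, Cux1 and Unc5d are higher and those of Bcl11b, Fezf2 and Rnd2 lower on each later day in both genotypes.

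The 3 markers that the selection did not use went different ways with the day. Unc5d stood at 66.3, 60.0, 102 and 68.3 CPM in WT on E14.5, then at 155, 138, 154 and 140 on E16.0 and at 254, 235, 109 and 185 on E17.5. E14.5 and E16.0 did not overlap, whereas F1 at E17.5 fell below all E16.0 libraries. Unc5d rose by 0.93 ± 0.19 on the log2 scale at the first step (adjusted p = 0.00552) and by 1.40 ± 0.19 over both (adjusted p = 7.8e-06). Rnd2 stood at 423, 460, 445 and 505 CPM on E14.5, then at 327, 263, 225 and 258 on E16.0 and at 85.9, 188, 99.4 and 259 on E17.5. Neither step of Rnd2 passed (adjusted p = 0.0607 and 0.202), and over both it fell by 1.59 on the log2 scale (-1.59 ± 0.28, adjusted p = 0.000189). Vat1, which overlaps Rnd2, was called lower at the first step, from 211 ± 16.9 to 109 ± 12 CPM. Nrp1 stood at 268, 319, 312 and 238 CPM on E14.5, then at 462, 447, 421 and 363 on E16.0 and at 365, 299, 231 and 406 on E17.5. Its middle day lay above E14.5 without overlap, but neither step passed (log2 changes 0.48 ± 0.15 and -0.33 ± 0.15, adjusted p = 0.0749 and 0.307).

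Among 27 tested genes of the radial migration machinery, Unc5d and Lrp8 rose at the first step, none changed at the second, and 7 rose and 4 fell over both, with a list median of 0.15, where 11.7% of all genes rose and 10.3% fell. Over both steps, 4 rose and 6 fell without the p-coded E17.5 libraries, and 10 rose and 5 fell without the c-coded ones. Lrp8, a Reelin receptor, went from 78.1 to 127 and 156 CPM in WT. The other Reelin receptor Vldlr and the adaptor Dab1 rose over both steps, as did Dcx, a microtubule protein of migrating neurons, with 387 ± 70.5 CPM at E14.5 and 532 ± 95.7 at E17.5 (adjusted p = 0.0441). The call of Dcx was lost without either code (adjusted p = 0.167 without p and 0.0706 without c), and that of Dab1 without the p-coded libraries (adjusted p = 0.478). Cdk5r1, the p35 activator of Cdk5, stood at 288 ± 32.3, 346 ± 31.1 and 327 ± 26.0 CPM and passed at no comparison. Rnd3, a relative of Rnd2, fell over both steps.

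Nrp2, a semaphorin receptor, fell at the second step. It lies at chr1:62703285-62818695 and stood at 24.4, 24.4, 30.8 and 18.3 CPM on E14.5, then at 38.8, 35.4, 26.3 and 42.8 on E16.0 and at 7.06, 5.01, 9.84 and 3.30 on E17.5. Every E17.5 library lay below every earlier one, and the second step of -2.36 ± 0.29 on the log2 scale passed (adjusted p = 6.55e-05). Sema6d, a transmembrane semaphorin, fell at the second step too, from a mean of 79.7 to 38.7 CPM (adjusted p = 0.0224). Robo1, a Slit receptor, rose at the first step from 21.1 ± 2.92 to 50.5 ± 7.03 CPM (1.23 ± 0.26, adjusted p = 0.00788), and Sema3a, a secreted semaphorin, from 9.91 to 21.3 CPM. Of 26 axon guidance genes tested, 3 rose at the first step, 1 rose and 2 fell at the second, and 7 rose and 4 fell over both, where 11.7% of all genes rose and 10.3% fell. Over both steps, 6 rose and 2 fell without the p-coded E17.5 libraries, and 10 rose and 4 fell without the c-coded ones.

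Several transient factors of early differentiation fell with the day, while the median of their list stayed near 0. Of 23 genes of the neurogenic cascade tested, 2 rose and 4 fell at the first step, 3 fell at the second, and 4 rose and 9 fell over both, with list medians of -0.04, -0.08 and -0.09. Over both steps 11.7% of all genes rose and 10.3% fell. The 4 that rose over both were Insm1, Nfix, Id2 and Myt1l. Without the p-coded E17.5 libraries 4 rose and 7 fell over both, and without the c-coded ones 5 rose and 10 fell. Nhlh2, a bHLH factor of newborn neurons, stood at 46.7, 45.3, 47.2 and 41.9 CPM on E14.5, then at 21.1, 30.1, 25.4 and 29.8 on E16.0 and at 4.71, 7.87, 6.89 and 13.2 on E17.5. The days did not overlap and both steps passed (log2 changes -0.88 ± 0.24 and -1.67 ± 0.36, adjusted p = 0.0416 and 0.0201). Its relative Nhlh1 went from 40.7 ± 4.76 to 22.2 ± 3.43 and 8.01 ± 4.09 CPM and passed at both steps as well. Without the p-coded E17.5 libraries the second step of Nhlh2 and of Nhlh1 did not pass (-1.36 and -1.28, adjusted p = 0.0797 and 0.164). Gadd45g, a stress-response gene of cells leaving the cycle, went from 252 ± 62.1 to 156 ± 55.6 and 63.7 ± 19.2 CPM. Hey1, a Notch target, fell from 59.9 ± 7.73 to 37.2 ± 10.8 and 13.2 ± 4.12 CPM. Vim, the intermediate filament of radial glia, stood at 258, 230, 154 and 195 CPM at E14.5 and at 31.8, 31.5, 39.4 and 37.9 at E17.5, and fell by 2.62 on the log2 scale over both steps (-2.62 ± 0.20, adjusted p = 1.09e-09). Of 5 radial glia markers tested, Vim fell while Slc1a3 rose, at the first step and over both. The list median over both steps was -0.12. As a measured fact beside these, the 5 intermediate progenitor markers outside the selection summed to 770 to 850 CPM in E14.5 WT and to 354 to 632 in E17.5 WT, and the 5 radial glia markers, Vim among them, to 439 to 483 and 272 to 353. Their part in these results was not tested.

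Lsamp and Gria2 rose at both steps. Lsamp, an adhesion molecule of the IgLON family, stood at 41.6, 38.7, 21.6 and 28.1 CPM on E14.5, then at 74.8, 42.9, 133 and 71.4 on E16.0 and at 221, 203, 198 and 203 on E17.5. It passed at both steps (1.20 ± 0.25 and 1.38 ± 0.24, adjusted p = 0.00788 and 0.00225), and no day overlapped another. Gria2, an AMPA receptor subunit, stood at 381, 406, 310 and 367 CPM, at 740, 710, 841 and 708, and at 1937, 1043, 1037 and 1001, and passed at both steps (adjusted p = 0.00586 and 0.0311). Slc17a7, the vesicular glutamate transporter, fell at the first step, from 22.9 to 12.2 CPM, and Cntnap2, a neurexin-family adhesion protein, from 80.4 ± 20.3 to 40.4 ± 10.7. Of 25 maturation genes tested, 2 rose and 1 fell at the first step, 1 rose at the second, and 6 rose and 3 fell over both. Without the p-coded E17.5 libraries 4 maturation genes rose and 4 fell over both, and without the c-coded ones 11 rose and 2 fell. Of 22 adhesion genes, 1 rose and 1 fell at the first step, none changed at the second, and 5 rose and 2 fell over both, against 4 and 5 without the p-coded and 10 and 1 without the c-coded E17.5 libraries. Over both steps 11.7% of all genes rose and 10.3% fell, and the counts that fell, 3 of 25 and 2 of 22, are near that background.

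Outside these lists, the genes named by rank of change include Kctd4, from 15.1 to 48.0 CPM at the first step, and the microRNA host transcript Mir100hg, from 170 ± 18.8 to 422 ± 54.8. Cabp1, a neuronal calcium-binding protein, fell from 77.3 ± 27.0 to 27.1 ± 6.78 CPM. At the second step Fbxw7, a ubiquitin ligase subunit, rose from 27.8 ± 2.68 to 63.3 ± 10.5 CPM, and Dok5, a docking protein, from 62.5 ± 3.07 to 138 ± 55.7. Dusp14, a phosphatase, fell from 108 ± 23.5 to 37.9 ± 12.2 CPM at the second step.

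The steps were measured again in the het libraries, which share no embryo with the WT libraries but share the label codes of each stage and the spread estimated in the fit. In het, 182 genes were higher (1.89% of all tested) and 149 lower (1.55%) at the first step. The second step had 180 higher (1.87%) and 145 lower (1.5%). Without the p-coded E17.5 libraries 0.53% of genes were higher and 0.393% lower at that step in het. Without the c-coded ones 9.53% were higher and 9.14% lower. The overlaps and single-gene values below rest on all libraries. At the first step 104 of the 214 genes that rose in WT were also called in het (48.6% of the WT list and 57.1% of the het list), and 65 of the 125 that fell (52.0% and 43.6%). At the second step the overlap was 48 of 74 (64.9% and 26.7%) and 36 of 62 (58.1% and 24.8%). Pou3f2 rose in het libraries by 2.00 and then 0.87 on the log2 scale, Bcl11b changed by -0.89 and -0.60, and Fezf2 by -1.04 and -1.51, and all of these passed. Nrp1 rose in het libraries at the first step by 0.54 ± 0.15 (edgeR, adjusted p = 0.0450), while its WT change of 0.48 at that step did not pass. The test for the interaction of genotype and stage called no gene. Nrp2 differed by -0.91 at the second step in het libraries (adjusted p = 0.0499) and stood at 17.7, 10.9, 26.1 and 9.99 CPM at E17.5. The test of het against WT at E17.5 called 0 of the 26 guidance genes, Nrp2 included (smallest adjusted p of 1.00).

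Newborn neurons at E17.5 differed between libraries by label code. In a comparison added after the data were seen, with genotype as a term, 884 of 8121 genes were higher (10.9%) and 585 lower (7.2%) in the 4 p-coded than in the 4 c-coded libraries, with a median of 0.01. Mef2c stood at 546 and 635 CPM in the p-coded WT libraries M1 and F1 and at 856 and 575 in their het partners, against 105 and 84.1 in the c-coded WT libraries M2 and F2 and 143 and 105 in het. The codes did not overlap, and the log2 difference was 2.54 (adjusted p = 4.7e-08). Grin2b averaged 172 ± 60.7 CPM in p-coded and 31.2 ± 6.86 in c-coded libraries. Of 23 maturation genes 13 were higher and none lower, of 18 adhesion genes 13 were higher and none lower, and the list medians were 0.74 and 0.83. In the other direction, Rnd2 averaged 106 ± 31.9 against 227 ± 51.5 CPM, Wnt7b, a Wnt ligand of cortical neurons, 79.6 ± 17.1 against 202 ± 35.4, and the chemokine Cxcl12 35.1 ± 21.5 against 91.2 ± 7.03.

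Of 8 deep-layer genes tested, Ldb2, Sox5, Fezf2 and Tle4 were higher and Tbr1 lower in p-coded libraries, with a list median of 0.53, and of 8 upper-layer genes 1 was higher and 1 lower, with a median of -0.19, beside 10.9% higher and 7.2% lower of all genes. Rorb, an upper-layer gene, averaged 80.5 ± 39.6 CPM in p-coded and 18.4 ± 8.08 in c-coded libraries, while Cux2, another, averaged 74.8 ± 8.44 and 142 ± 21, and both differences passed. Later neurons made up 38.5 to 41% of the barcodes in p-coded and 26.6 to 33.6% in c-coded libraries. Of 10 immediate early and heat shock genes, which respond to handling as well as to activity, 5 were higher (Fos, Jun, Egr1, Ier2 and Hsp90aa1) and Jund was lower. Jun averaged 439 ± 128 CPM against 139 ± 29.7. The part of these differences in the layer and maturation genes was not tested.

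**Figure D4:**
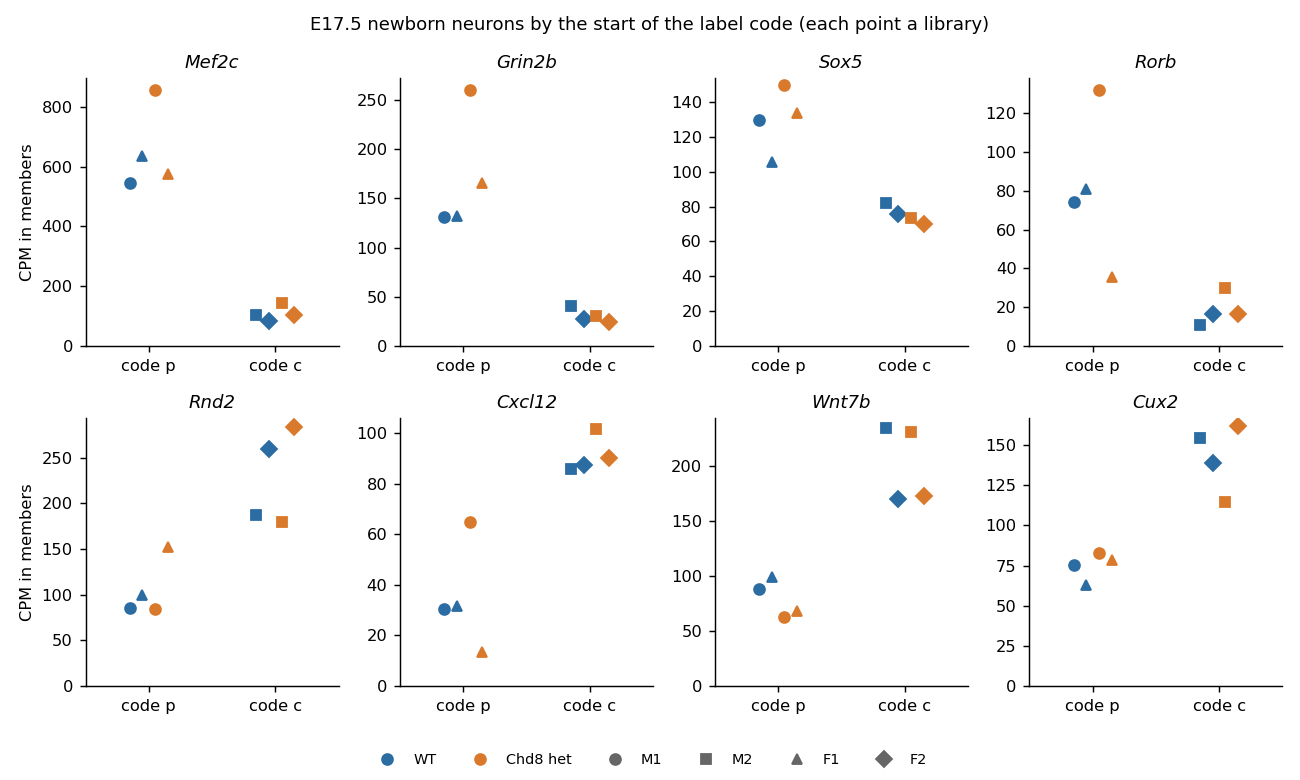
Levels in CPM (vertical axes) of 8 genes in newborn neurons of the 8 E17.5 libraries, by the start of the label code (horizontal axes), with colour for genotype and shape for the embryo. Mef2c, Grin2b, Rorb and Sox5 are higher in all 4 p-coded libraries, and Rnd2, Cxcl12, Wnt7b and Cux2 in all 4 c-coded libraries.

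Chd8 itself had a lower mean in het than in WT newborn neurons at each stage, without passing the test. In WT it stood at 46.4, 39.5, 41 and 46.4 CPM on E14.5, then at 48.8, 61.0, 57.4 and 65.5 on E16.0 and at 106, 59.4, 58.1 and 70.9 on E17.5. In het it stood at 30.8, 40.7, 50.1 and 30 CPM, at 59.8, 46.1, 47.2 and 58.8, and at 70.8, 39.8, 72.0 and 48.3. The groups overlapped at every stage, and het was lower in 8 of 12 pairs. Averaged over the stages, the log2 change was -0.27 ± 0.11 (unadjusted p = 0.0234, adjusted p = 1.00 with edgeR). The allele is not described in the labels beyond its genotype. Whether the counted 3′ reads come from outside the altered part was not tested. Chd8 (chr14:52198151-52257780, minus strand) also overlaps Snord8 on its own strand and Gm26590 on the other.

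No gene was called between het and WT newborn neurons in the main fit, which did not keep the pairs together. At E14.5, E16.0 and E17.5, averaged over the stages, and for the interaction of genotype and stage, edgeR called 0 of 9636 genes (0% in each). Unadjusted p was under 0.05 for 142, 158 and 347 genes at the 3 stages, 365 averaged and 119 for the interaction, and DESeq2 called 0 genes in each contrast. With the pairs as a block in edgeR, unadjusted p was under 0.05 for 701 genes at E17.5 and 713 averaged. The block called 1 gene at E17.5 and 2 averaged. The lists on migration, the neurogenic cascade, layers, guidance, adhesion, maturation, heterochronic genes and autism risk genes each held 0 called genes. Unc5d changed by 0.00, Rnd2 by 0.21 and Nrp1 by -0.12 on the log2 scale averaged over the stages. The test of whether the genotype change in newborn neurons differed from that in all other barcodes of the same libraries also called no gene (0 of 9636, 0%, and 341 at an unadjusted p under 0.05), and Smo, the Hedgehog signal transducer, had the smallest adjusted p, 0.467 with edgeR.

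The gene nearest to the threshold was Crlf2, the receptor subunit for thymic stromal lymphopoietin at chr5:109554709-109558993, a gene also picked in earlier work on these samples, so its direction is no independent evidence. It stood at 10.3, 11.2, 6.16 and 18.7 CPM in WT and 18.7, 18.1, 23.2 and 24.4 in het at E14.5. At E16.0 it stood at 22.2, 24.1, 26.3 and 16.7 against 35.3, 31.4, 31.1 and 39.4, and at E17.5 at 17.6, 21.5, 24.6 and 26.4 against 27.6, 36.8, 38.6 and 38.3. Het was higher in 12 of 12 pairs, and the groups did not overlap at E16.0 and E17.5. Averaged, Crlf2 was higher by 0.65 ± 0.13 on the log2 scale with an adjusted p of 0.283 (edgeR). With the pairs as a block it passed, at 0.64 ± 0.11 and an adjusted p of 0.0246. It also passed without the WT female F2 at E14.5, at 0.76 and 0.00504, and its adjusted p ranged from 0.00504 to 0.767 over all alternatives tried.

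With the pair block, Krt10 and Mfsd6 passed too, and they are named here because they did. Krt10, a keratin at chr11:99385254-99389364, averaged 56.4 ± 4.48, 51.1 ± 10.2 and 59.9 ± 12.7 CPM at the 3 stages in WT, against 76.2 ± 4.95, 74.9 ± 12.7 and 72.4 ± 20.4 in het. It was higher in 12 of 12 pairs, by 0.41 ± 0.10 on the log2 scale without the block (adjusted p = 0.599) and 0.40 ± 0.07 with it (adjusted p = 0.0177). Krt10 overlaps Gm11940 on the other strand. Mfsd6, a transmembrane protein at chr1:52656286-52727462, stood at 29.4, 14.3, 17.7 and 9.90 CPM in WT and 55.1, 24.9, 58.5 and 46.6 in het at E17.5. It was higher in each of the 4 pairs, although het M2 lay below WT M1. Mfsd6 was higher by 1.30 ± 0.27 at E17.5 without the block (adjusted p = 0.413) and 1.28 ± 0.22 with it (adjusted p = 0.0338), and without het M2 it passed at 1.51 and 0.0169.

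Other genes, chosen for small unadjusted p in these same libraries, did not pass under the block, and their direction across pairs is no independent evidence. Xrcc4, a DNA end-joining factor, averaged 12.2, 10.2 and 15.2 CPM in WT and 17.6, 16.8 and 23.1 in het and was higher in 12 of 12 pairs (adjusted p = 0.424, and 0.0671 with the block). Cks1b, a cyclin-dependent kinase subunit, averaged 66.5, 52.1 and 50.1 CPM in WT and 57.4, 46.4 and 26.7 in het. Zdhhc9, a palmitoyltransferase subunit, averaged 12.9 CPM in WT and 3.91 in het at E17.5, where it was lower in each pair. Without the filter on low counts, 13, 23 and 3 genes were called at the single stages and 10 averaged, and these included haemoglobin genes, microglial C1q genes and pericyte genes. Haemoglobin genes summed to 67.3 to 13617 CPM over the 24 libraries, and their part in these calls was not tested.

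**Figure D5:**
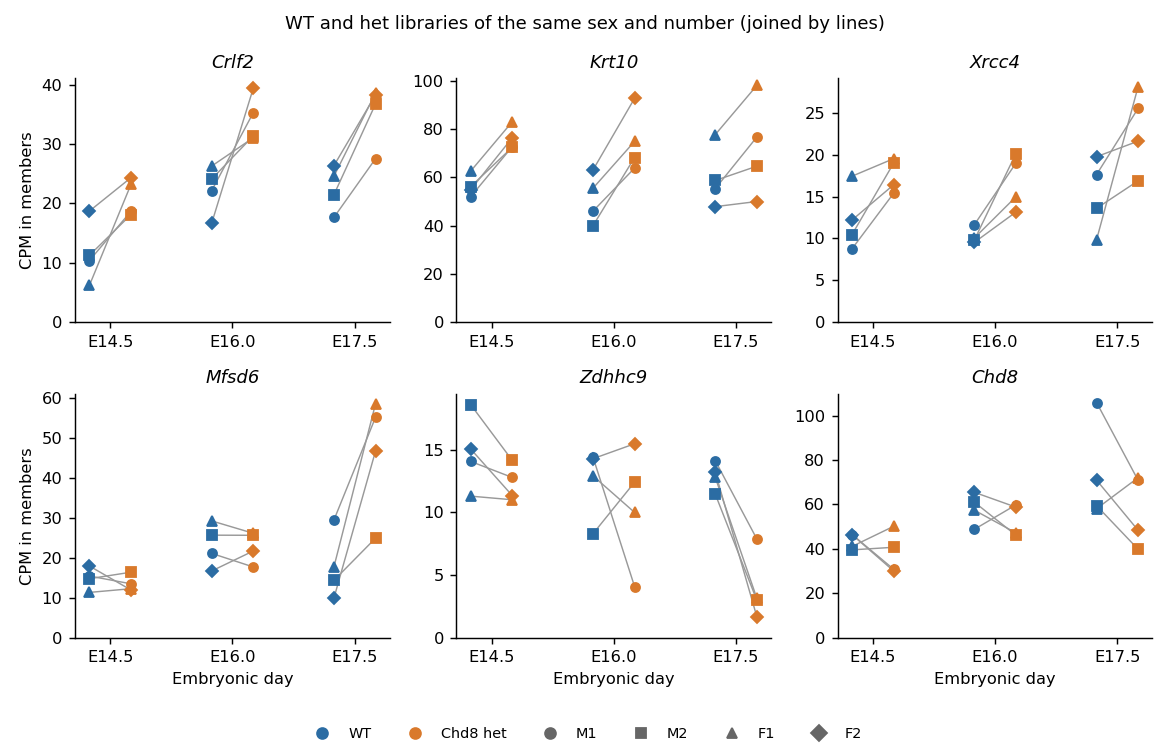
Levels in CPM (vertical axes) of 6 genes in newborn neurons, with a line joining the WT and the het library of the same sex and number, by embryonic day. Crlf2, Krt10 and Xrcc4 are higher in het in 12 of 12 pairs, Mfsd6 is higher at E17.5, and Chd8 is lower in 8 of 12. All but Chd8 were chosen by their p in these same libraries, so their direction across pairs is no independent evidence.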

How the data were processed

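Droplet 3′ single-cell RNA-seq (10x Genomics, chemistry version 2) was measured in dorsal telencephalon of 32 mouse embryos, and the 24 libraries of E14.5, E16.0 and E17.5 were used. The authors deposited, per library, a matrix of raw UMI counts per gene and cell barcode, with no normalization. Per the submitters' processing notes, STAR 2.7.9a, STARsolo, Cell Ranger and the mm10 build were named, with no role or order; the strand used in counting and the rule for calling cells were not given in sources used here. Gene positions are from GENCODE M21 on GRCm38, in which 99.85% of the 32285 gene identifiers of the files were found.

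Cells were chosen by UMI thresholds only, without clustering or normalization. The members and gene lists were chosen with earlier results of these data known. Doublets were not removed: a score from simulated doublets (scikit-learn 1.9.0, 0.5 simulated per barcode, 2000 variable genes, 30 principal components, 30 neighbours, 0.8% doublets per 1000 barcodes) called 3781 barcodes, of which 207 were newborn neurons (3.51%), and their removal was an alternative. RNA free in the droplet suspension was not modelled. Of the newborn neurons 1 had over 10% mitochondrial UMIs.

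UMIs were summed over newborn neurons of each library and tested with edgeR 4.0.16 in R 4.3.3 (quasi-likelihood test, TMM factors, filterByExpr on the 6 groups, 1 coefficient per stage and genotype, no covariate). The 7 genes of the selection were left out. The comparison with other barcodes of a library kept the library as a block. DESeq2 1.42.0, RLE factors, no filter, a stricter selection (Neurod1 at least 3 UMIs, Eomes 0), doublet removal, each library left out and the pair block were alternatives. The E17.5 label codes and the contrast of E17.5 with E14.5 were examined after the data were seen. Shares were compared with two-sided exact permutation tests, and the mean over stages by 100000 permutations within stages (numpy 2.4.6, scipy 1.17.1). The fits were tested on simulated data.

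Per the labels, WT and het embryos were litter- and sex-matched, but the pairs are not listed; libraries of the same stage, sex and number were taken as partners, which share the start of the label code. Over 4924 genes, the deviations of partners from their group means correlated with r between 0.0816 and 0.610, above 0.1 in 10 of 12 pairs, and the partner gave the highest r in 8 of 12. The block is reported beside each result whose call it changes. Replicates are separate embryos.

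Genes were named by rule: the 4 markers, the genes of the selection and Chd8; all members of the fixed lists; for each WT step the 12 called genes of largest change in each direction with mean log2 CPM no lower than 5 and groups that do not overlap; and, since no gene passed for genotype averaged over the stages, the 5 of smallest p there. One gene of the upper-layer list is not reported here. Krt10, Mfsd6, Smo and the genes named by label code were chosen after their values were seen.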

Additional observations from a re-analysis of the deposited data

Results flagged for a closer look

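Of 114 groups of 4 libraries examined, 6 held a library whose gap to the nearest other exceeded Dixon's 95% limit, a share of the group's range, where chance flags about 1 in 20 groups. At E14.5 het, female F2 had a median of 5340 UMIs per newborn neuron, against 7510 in the next lowest library, and the same library had the highest Rnd2 level, 740.7 CPM against 488.3. At E17.5 het, Unc5d stood at 239.8 CPM in F2 against 195.9 in the next, Nrp1 at 418.7 in F1 against 271.5, and Crlf2 at 27.55 in M1 against 36.79 in the next lowest. At E17.5 WT, Gria2 stood at 1937 CPM in M1 against 1043 in the next highest.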

How the results depend on the processing

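Without the filter on low counts, genotype calls went from 0 to 13 at E14.5, 23 at E16.0, 3 at E17.5, 10 averaged, 8 for genotype by stage and 35 against the other barcodes, and WT calls from 339 to 594 at the first step and from 136 to 375 at the second. The stricter selection, which keeps 2475 cells, gave 102 and 61 WT calls at the steps and 954 from E14.5 to E17.5 (2125 before). Without the c-coded E17.5 libraries the steps gave 704 and 659 calls, and 1 gene (Smo) was called against the other barcodes; without the p-coded ones the first step gave 946 calls and E14.5 to E17.5 gave 1171. The cause was not tested. Unthinned, Pou3f2 and Fezf2 were found together in 17.13, 20.47 and 9.842% of WT newborn neurons at the 3 stages, since all UMIs were then counted.

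With the matched pair as a replicate block, 1 gene was called at E17.5 (Mfsd6) and 2 averaged (Crlf2 and Krt10). The paired value for the mean share was -0.9343 points (sign-flip permutation over 12 pairs, p = 0.0195, adjusted p = 0.0781), which does not pass with or without the block. The block, run on the 4 share comparisons, 5 genotype counts and 10 named-gene values, changed no other call among them.

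With 1 library left out, the het share minus WT at E17.5 ranged from -0.9895 to 0.05244 points, the highest without WT M2. Genotype calls ranged from 0 to 1 at E17.5 (1 without het M2) and from 0 to 1 averaged (1 without E14.5 WT F2). First-step calls ranged from 123 to 458: 132 without E14.5 WT M1, 123 without M2 and 173 without F2, and 189, 166, 150 and 163 without E16.0 WT M1, M2, F1 and F2. Second-step calls ranged from 26 to 162: 53, 26 and 79 without E16.0 WT M1, M2 and F2, and 88, 82 and 52 without E17.5 WT M1, M2 and F1. No value of a named gene changed sign where it was computed (the replicate block covers 10 of these values). 5 of 192 lost their call with DESeq2, 2 of 192 with RLE scaling, 5 of 192 without the filter on low counts, 9 of 191 with doublets removed, 62 of 185 with the stricter selection, 43 of 191 without the p-coded and 19 of 192 without the c-coded E17.5 libraries, and 415 of 4608 with single libraries left out. The values counted include 10 genotype values that were not called in the main fit and so could not lose a call. Without the filter on low counts 3 values gained a call, and 2 did with single libraries left out.

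Libraries held 79 to 445 newborn neurons; whether deeper libraries would give other calls was not tested. A p that misses the threshold does not show that genotypes are alike.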

Other observations

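Among the WT newborn neurons, the RNA-binding proteins Igf2bp1 and Igf2bp2 fell with the day. Igf2bp2 averaged 42.1 ± 5 CPM at E14.5, 31.4 ± 6.24 at E16.0 and 12.9 ± 2.98 at E17.5, with the second step at -1.13 ± 0.28 on the log2 scale (edgeR, adjusted p = 0.0365, and 0.128 without the p-coded E17.5 libraries), and Igf2bp1 averaged 41.9, 35.8 and 24.7 CPM and passed over both steps only (adjusted p = 0.00362). Of 25 autism risk genes tested, 2 rose at the first step (Kmt5b and Tcf7l2), none changed at the second, and 11 rose and none fell over both, beside 11.7% of all genes. This rests in part on the label codes at E17.5: over both steps 3 rose and 1 fell without the p-coded libraries, 14 rose and 1 fell without the c-coded ones, and 9 of 24 were higher and 1 lower in p-coded than in c-coded libraries, among them Scn2a, Ash1l, Ank2, Kmt2c, Grin2b, Kmt2a and Asxl3 of the 11. The list medians were 0.38, 0.23 and 0.60. Chd8 itself rose in WT over both steps (0.70 ± 0.19, adjusted p = 0.00812, and 0.0770 without the p-coded libraries). Reln averaged 16.5 CPM at E14.5 WT and 3.25 at E16.0 WT (adjusted p = 0.0015), and Cajal-Retzius markers summed to 11.4 to 43.0 CPM in E14.5 WT libraries and 1.44 to 7.20 in E16.0 WT libraries, and the part of such cells in this was not tested.

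At E14.5 the males and the females, whose label codes differ, stood apart across genes, among them Hist1h2bc in both genotypes and Fos in WT libraries. Deviations of WT and het libraries from their group means correlated negatively between the sexes, with r from -0.281 to -0.484. Within a sex r was positive, from 0.0672 to 0.610. The first step was not fitted with the E14.5 males or the E14.5 females left out together. Fos stood at 192 and 173 CPM in WT males and 61.6 and 64.7 in WT females, and the histone gene Hist1h2bc at 436 and 610 against 211 and 244. In het libraries Hist1h2bc stood at 490 and 523 CPM in males and 248 and 358 in females. These were not tested.

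Single libraries had high levels of genes known from other cell types in their newborn neurons, and the source of this RNA was not tested. C1qa, a microglial gene, stood at 62.5 CPM in the E16.0 het male M1 and at most at 1.65 in the other libraries, Rgs5, a pericyte gene, at 27.0 in the E14.5 het male M2, and Calb2, a gene of Cajal-Retzius cells and interneurons, at 114 in the E17.5 het female F1.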
